A study of Mus musculus with 9 samples.

Results

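The 34 genes described here mark endothelial cells, the cells that line blood vessels, and were measured by RNA-seq in whole mouse hearts. They were chosen by symbol from a deposited table of 55401 gene rows. All 34 were found with 1 row each, and all 34 passed the filter on low counts that left 19051 genes for testing. The study asked about c-Myc in the cardiac fibroblasts of hearts under pressure overload, which was produced by transverse aortic constriction (TAC), a surgical narrowing of the aorta. The KO-TAC group (n = 3) had the genotype c-Myc Knockout and TAC for 12 weeks. Its mice were homozygous for a floxed c-Myc and carried the tamoxifen-inducible Tcf21 iCre, so the deletion was aimed at fibroblasts and not at endothelium. The TAC group (n = 3) had the genotype WT and the same 12 weeks of TAC. The Control group (n = 3) had the genotype WT and no TAC, and the study's design text speaks of a sham operation. Mice were male and 8 to 12 weeks old at surgery, and tamoxifen was given into the abdomen at 45 mg/kg on 5 consecutive days. The sources used here do not say whether WT mice also received tamoxifen or carried the Cre, so effects of either cannot be told apart from those of the deletion.

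Endothelial cells hold together through adherens and tight junctions, take growth signals from VEGF and angiopoietin receptors, and keep their identity through ETS and SOX transcription factors. In the heart most of them line capillaries between the muscle fibres, where they pass fatty acids from the blood to the muscle and release nitric oxide. Venous endothelium and activated endothelium additionally carry the adhesion molecules that catch leukocytes. The 34 genes cover these roles with 9 junction and surface genes, 6 receptors, 4 transcription factors, 7 capillary genes, 6 genes of venous or activated endothelium, and the apelin ligand and its receptor.

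The promoters of 4 members are shown because their expression differed in pattern: Rgcc and Aqp1 had separated values in the TAC and Control hearts, Flt1 had them in all 3 groups, and Kdr, the other VEGF receptor of the set, had overlapping values throughout. Each line gives the 250 bases before the RefSeq transcription start on GRCm38.p6, 5′ to 3′ on the gene's own strand. Rgcc lies at chr14:79301636-79301885 on the minus strand, Aqp1 at chr6:55336049-55336298 on the plus strand, Flt1 at chr5:147726012-147726261 on the minus strand, and Kdr at chr5:75978456-75978705 on the minus strand. Capitals mark matches on either strand to AGGAAGT (an ETS core), TGACGTCA (a cyclic AMP response element) or TATAAA (the box that places the start in some promoters).
Rgcc: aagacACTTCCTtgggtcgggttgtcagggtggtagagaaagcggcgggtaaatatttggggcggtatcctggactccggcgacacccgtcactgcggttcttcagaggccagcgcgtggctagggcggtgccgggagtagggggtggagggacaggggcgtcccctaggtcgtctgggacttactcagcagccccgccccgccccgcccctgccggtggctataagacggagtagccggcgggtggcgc
Aqp1: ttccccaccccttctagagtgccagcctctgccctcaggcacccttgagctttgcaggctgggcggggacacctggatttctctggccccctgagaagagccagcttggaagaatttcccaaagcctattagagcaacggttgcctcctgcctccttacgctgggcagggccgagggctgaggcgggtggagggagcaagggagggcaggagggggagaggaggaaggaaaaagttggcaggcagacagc
Flt1: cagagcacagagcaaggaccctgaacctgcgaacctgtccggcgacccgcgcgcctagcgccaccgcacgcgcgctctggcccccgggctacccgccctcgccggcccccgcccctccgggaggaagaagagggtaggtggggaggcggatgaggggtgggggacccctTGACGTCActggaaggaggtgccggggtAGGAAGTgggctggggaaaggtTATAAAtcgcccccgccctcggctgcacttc
Kdr: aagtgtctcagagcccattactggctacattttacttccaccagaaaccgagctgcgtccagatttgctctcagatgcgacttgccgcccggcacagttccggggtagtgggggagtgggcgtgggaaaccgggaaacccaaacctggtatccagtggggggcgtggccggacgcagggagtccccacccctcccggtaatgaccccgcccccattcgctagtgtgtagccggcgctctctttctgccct

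Rgcc held 1 match to AGGAAGT, on the opposite strand and 245 bases before the start. Flt1 held AGGAAGT at 53, TGACGTCA at 81 and TATAAA at 31 bases before the start, and Aqp1 and Kdr held none of these letters in their windows. The RefSeq table's windows run from 250 bases before to 50 after the start, and only the 250 before it were searched. Of its 32851 mouse promoter windows, 7.69% held AGGAAGT there, 1.55% TGACGTCA and 12.4% TATAAA. Of the 34 members, 20 had a window in that table, with 25 windows between them. The shares of all windows count windows while the members count genes, so a gene with several windows had more chances of a match. Among these 20, AGGAAGT occurred in Egfl7, Eng, Flt1 and Rgcc, and TATAAA in Apold1, Cav1, Erg, Flt1 and Sele. The ETS core CCGGAAG occurred in 1 of the 20 (Car4), against 6.91% of all windows. The related CAGGAAG, which shares its last 6 letters with the start of AGGAAGT, occurred in 8 of the 20, against 10.8% of all windows.

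The 9 libraries held 59702513 to 109162107 counts, of which mitochondrial genes took 23.78% to 38.45% and the 34 members 0.201% to 0.952%. Levels below are CPM, counts divided by the library total and scaled with TMM factors. Myc itself averaged 3.61 ± 1.53 CPM in KO-TAC, 9.79 ± 4.06 in TAC and 2.06 ± 0.463 in Control hearts (SD, n = 3 each). As no label ties each library to a separate mouse, the p-values below reflect only how far these samples spread, which may be partly technical. The TAC hearts stood far apart from each other. TAC replicate 3 was the highest of its group in 31 of the 34 members, and TAC replicate 2 was the lowest in 30 of 34. The median coefficient of variation of the members was 20.8% in KO-TAC, 41.5% in TAC and 6.27% in Control hearts, beside 22.8%, 41.5% and 12.1% over all genes tested.

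Markers of other cell types also differed between these hearts. The summed CPM of 14 cardiomyocyte markers was 55559 to 88973 in KO-TAC, 15206 to 103510 in TAC and 92566 to 94605 in Control hearts. The lowest of all, 15206, was TAC replicate 3, the heart with the highest endothelial values, and the highest, 103510, was TAC replicate 2, the heart with the lowest values of its group. The 9 fibroblast markers summed to 944 to 1485 CPM in KO-TAC, 757 to 3149 in TAC and 814 to 862 in Control hearts, with TAC replicate 3 highest and TAC replicate 2 lowest of their group here too. The 10 macrophage markers summed to 268 to 451 CPM in KO-TAC, 246 to 533 in TAC and 264 to 284 in Control hearts. The 6 erythroid markers summed to 839 to 1216 CPM in KO-TAC, 762 to 3476 in TAC and 738 to 1167 in Control hearts. The 11 smooth muscle and pericyte markers summed to 886 to 1236, 660 to 1134 and 1274 to 1310 CPM in these groups. TAC replicate 3 was the highest of all hearts in the erythroid sum and the lowest in the smooth muscle and pericyte sum. None of the markers in these lists was at 0 in all libraries. The part of these differences in the endothelial values was not tested. In RNA from whole hearts, fewer cells of a type and less RNA per cell cannot be told apart.

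**Figure D1:**
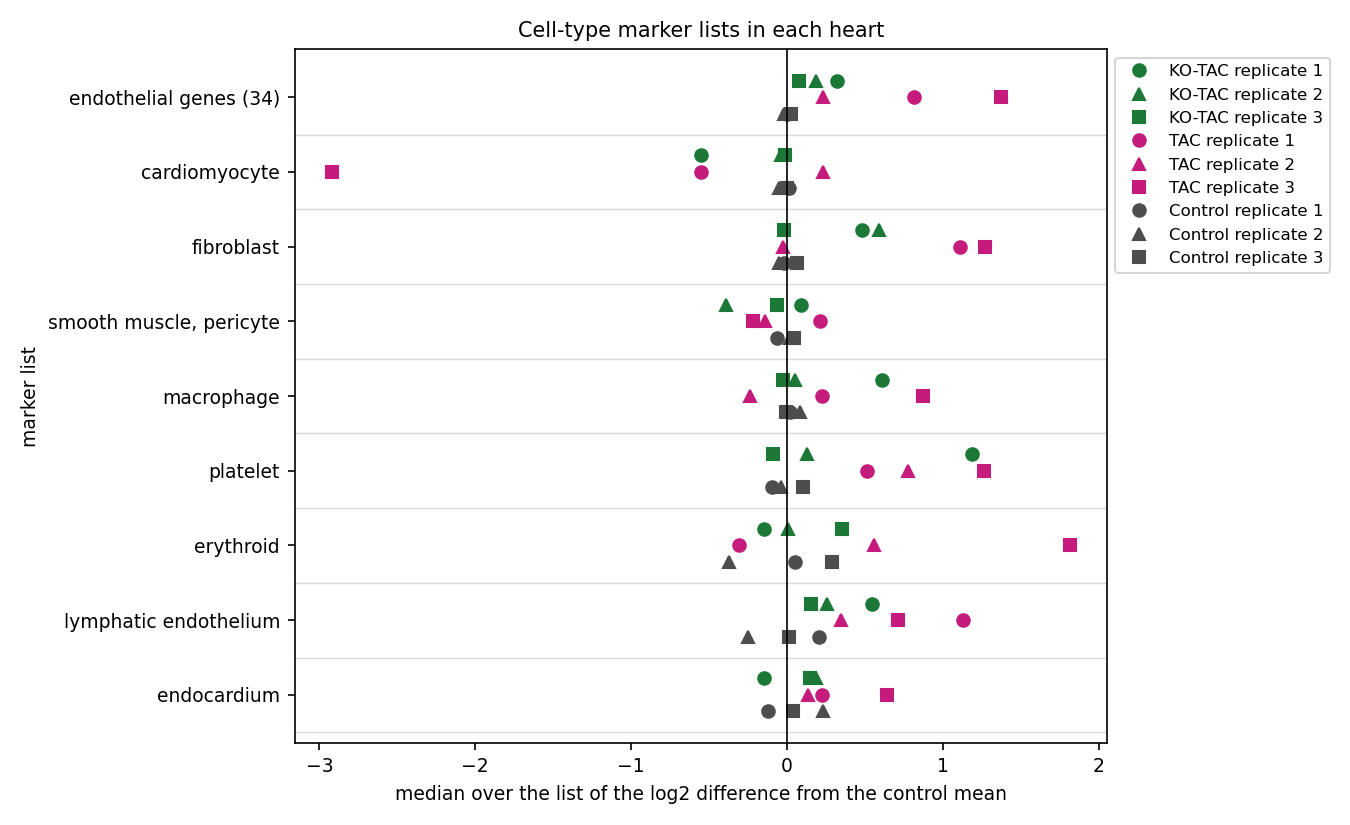
Median over each marker list of the log2 difference of log2(CPM + 0.5) from the control mean (x axis), for the 34 endothelial genes and other marker lists (rows), with 1 point per heart. TAC replicate 3 lies highest for the endothelial genes, at 1.37, and lowest for the cardiomyocyte list, at -2.92.

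The summed CPM of the members averaged 2788 ± 235 in KO-TAC, 4619 ± 1859 in TAC and 2419 ± 67.0 in Control hearts (SD, n = 3 each), and the TAC hearts differed widely among themselves. The sums were 3059, 2659 and 2645 in KO-TAC hearts, 4400, 2880 and 6578 in TAC hearts and 2357, 2410 and 2490 in Control hearts. All 3 KO-TAC sums lay above all 3 Control sums, and the lowest TAC sum lay below the highest KO-TAC sum. Fabp4, Aqp1 and Cav1 together made up 32.6% to 43.3% of these sums. Set against the control mean, the median member differed by 0.32, 0.19 and 0.08 on the log2 scale in the KO-TAC hearts and by 0.82, 0.23 and 1.37 in the TAC hearts.

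**Figure D2:**
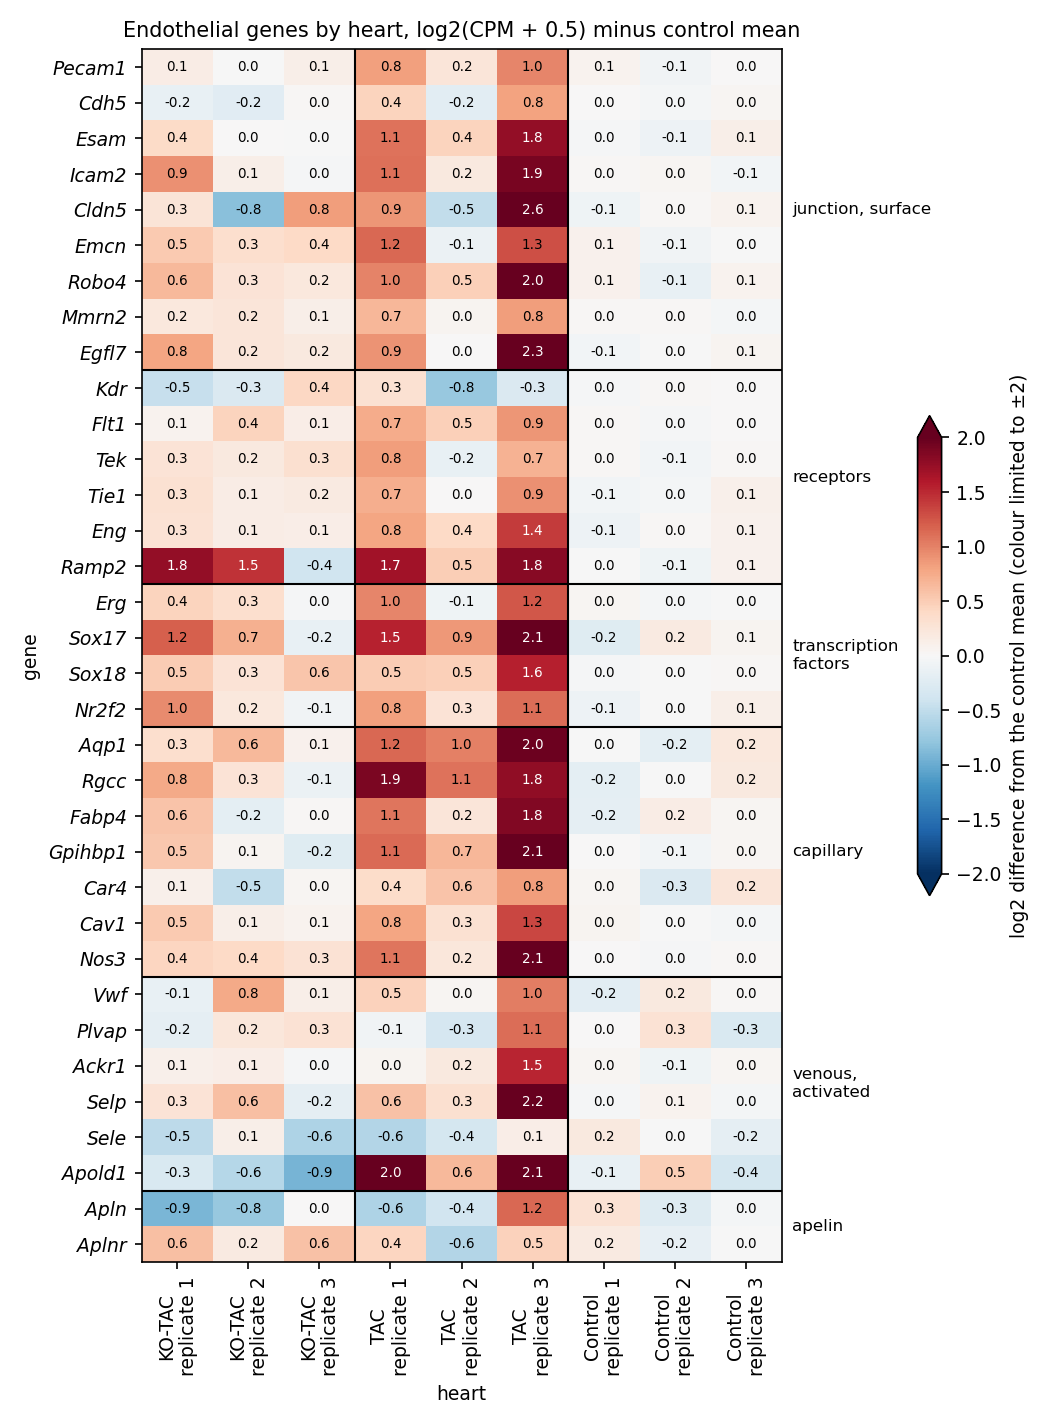
Log2(CPM + 0.5) of each of the 34 genes (rows, grouped by role) minus its mean over the 3 Control hearts, for each heart (columns); the number in each cell is that difference and the colour is limited at 2 in either direction. TAC replicates 1 and 3 are the highest columns, with medians of 0.82 and 1.37.

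In TAC against Control hearts, 32 of the 34 members had a higher fitted level (51.5% of all genes tested did), and the median log2 fold change was 0.92, beside 0.03 over all genes. The values of all 3 TAC hearts lay above those of all 3 Control hearts for 21 members, against 14.1% of all genes, and below them for 0 members, against 14%. Without TAC replicate 2 the count above was 30 (30.4% of all genes) and the count below 0 (29.3%). Without TAC replicate 3 these were 21 (18.3%) and 2 (16.7%). At an unadjusted p under 0.05, edgeR's quasi-likelihood test picked 26 members, all higher in TAC hearts, where it picked 13.2% of all genes as higher and 8.08% as lower. That count was 13 without TAC replicate 3 (7.86% of all genes), 14 without Control replicate 2 (7.63%) and 16 without Control replicate 1 (8.17%). It was 19 without Control replicate 3 (8.22%), 20 without TAC replicate 1 (10.8%) and 30 without TAC replicate 2 (20.8%). After Benjamini-Hochberg adjustment over the 19051 genes 0 members and 0% of all genes passed, and the lowest adjusted p of a member was 0.13 (Rgcc). DESeq2, run on the same genes, called 16 members higher (5.67% of all genes) and limma-voom with quality weights called 24 (18.2%, with 19.8% called lower and 0 members among them). The voom weights were 2.48 for TAC replicate 1 but 0.204 and 0.156 for TAC replicates 2 and 3. Its TAC level therefore rested mainly on TAC replicate 1. The edgeR count rests on TAC replicate 2: without it edgeR called 25 members higher, beside 13.5% of all genes as higher and 14% as lower. Without TAC replicate 3 it called 0 members, and the median log2 fold change was 0.55.

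In KO-TAC against TAC hearts, 32 of the 34 members had a lower fitted level, while 50.8% of all genes had a higher one, and the median log2 fold change was -0.68, beside 0.01 over all genes. Both groups had been constricted for the same time and differ in the Myc genotype. The values of all 3 KO-TAC hearts lay below those of all 3 TAC hearts for 9 members (4.8% of all genes) and above them for 0 members (5.17%). Without TAC replicate 2 the count below was 23 (18.8% of all genes), and without KO-TAC replicate 1 it was 15 (11.3%). With all hearts, the 9 were Pecam1, Esam, Flt1, Eng, Aqp1, Rgcc, Gpihbp1, Car4 and Apold1. At an unadjusted p under 0.05, 12 members were lower (4.51% of all genes) and 0 higher (2.94%). The count of lower members was 26 without TAC replicate 2 (12.8% of all genes), and 6 without KO-TAC replicate 2 (2.13%), KO-TAC replicate 3 (2.06%) or TAC replicate 3 (2.27%). After adjustment over all genes 0 members and 0% of all genes passed in edgeR. The lowest adjusted p of a member was 0.237 (Apold1). DESeq2 called Apold1 and Rgcc lower (0.614% of all genes were called lower) and limma-voom with quality weights called 11 members lower (1.93%) and 0 higher (3.3%). Here too TAC replicate 1 carried most of the voom weight of the TAC hearts. Without TAC replicate 3 the median log2 fold change was -0.27, and without TAC replicate 2 edgeR called 1 member lower, Apold1 (0.0552% of all genes).

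In KO-TAC against Control hearts, the 2 groups that differ in both load and genotype, 28 of the 34 members had a higher fitted level (53.8% of all genes did). The median log2 fold change was 0.26, beside 0.04 over all genes. For 11 members the values of all 3 KO-TAC hearts lay above those of all 3 Control hearts, against 12.9% of all genes, and for 0 they lay below, against 13.6%. Without KO-TAC replicate 3 the count above was 21 (23.7% of all genes). With all hearts, the 11 were Emcn, Robo4, Mmrn2, Egfl7, Flt1, Tek, Tie1, Eng, Sox18, Cav1 and Nos3. At an unadjusted p under 0.05 only Ramp2 was picked by edgeR, as higher (3.52% of all genes), and 0 members as lower (2.24%). Without KO-TAC replicate 3 edgeR picked 2 members as higher (4.29%), and without any other single KO-TAC or Control library 0. After adjustment 0 members and 0% of all genes passed in edgeR, with a lowest adjusted p of 0.851. DESeq2 called 0 members, with 0.304% of all genes higher and 0.163% lower, and limma-voom with quality weights called 0, with 2.4% and 2.8%. The 3 comparisons share libraries, so their values are not independent of each other.

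**Figure D3:**
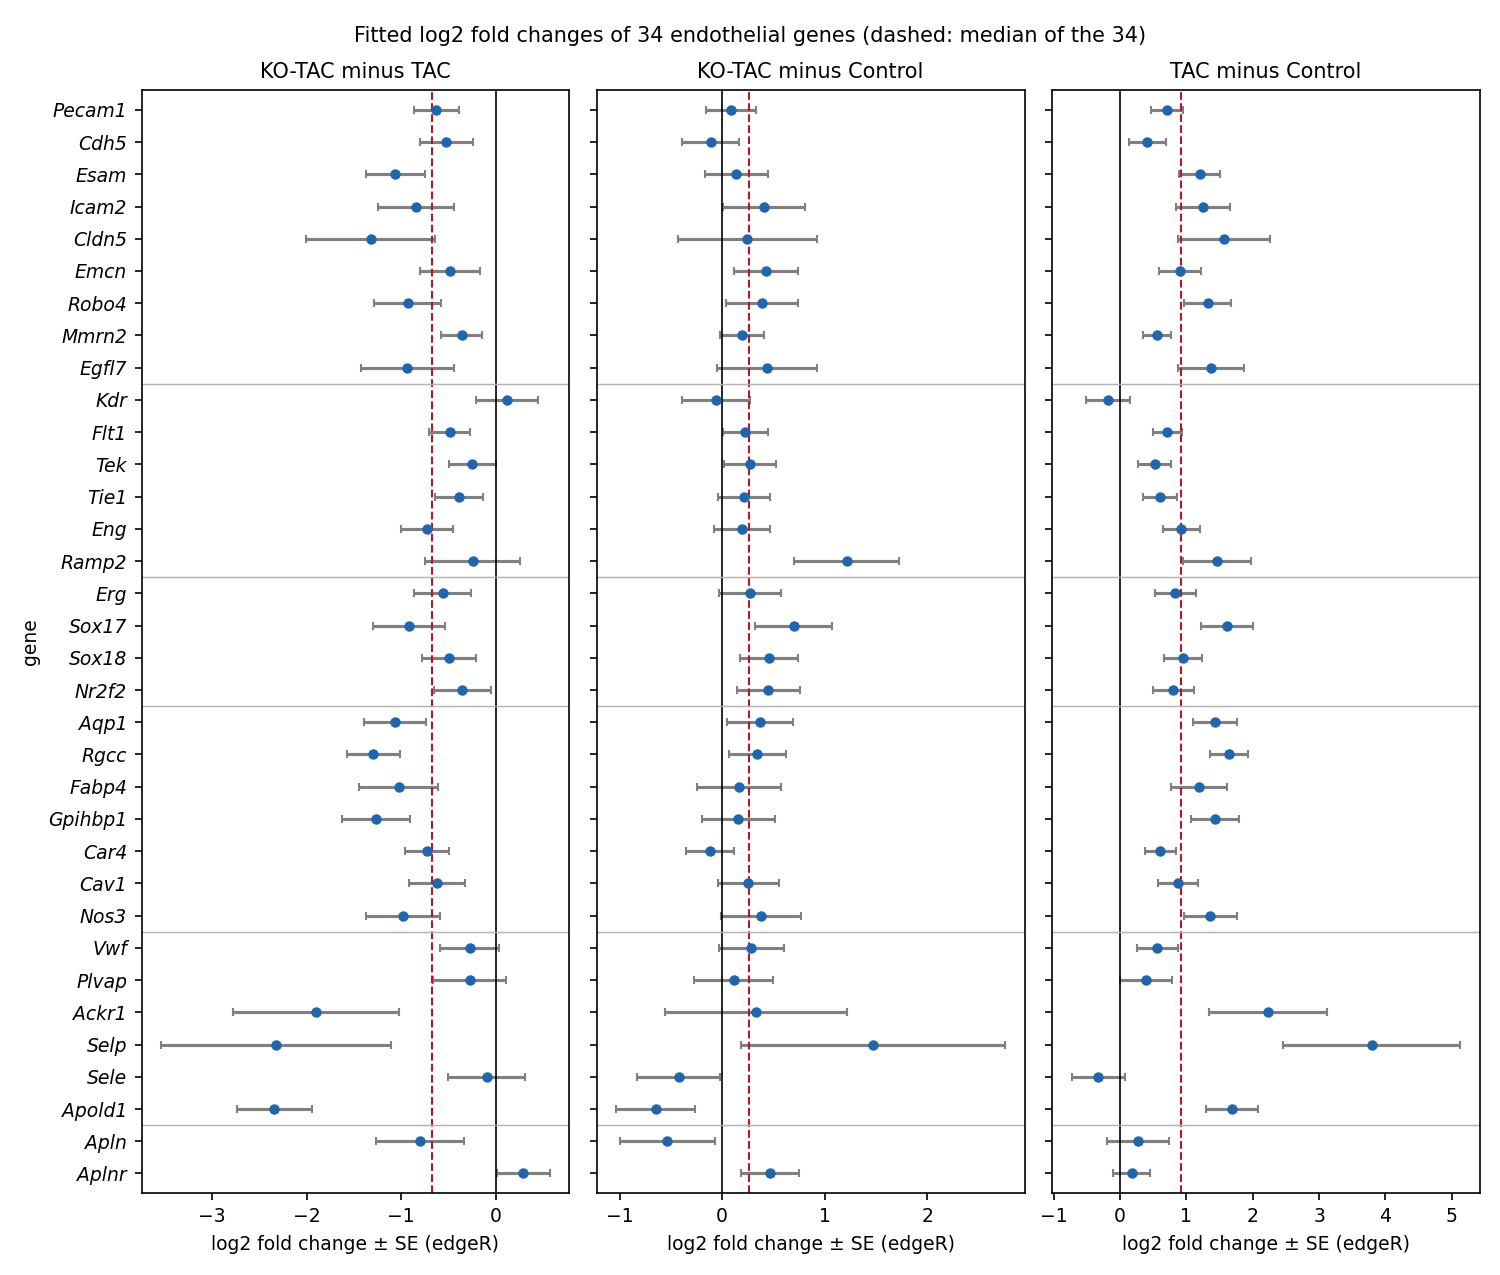
Fitted log2 fold change ± SE (edgeR, x axis) of the 34 genes (rows, separated by role) in the 3 comparisons, with the median of the 34 as a dashed line and 0 as a solid line. The medians are -0.68 for KO-TAC minus TAC, 0.26 for KO-TAC minus Control and 0.92 for TAC minus Control.

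The 9 junction and surface genes had a median log2 fold change of 1.20 in TAC against Control, -0.85 in KO-TAC against TAC and 0.25 in KO-TAC against Control hearts. Pecam1, the adhesion molecule CD31 of endothelial contacts, measured 148, 133 and 145 CPM in KO-TAC hearts, 236, 158 and 265 CPM in TAC hearts and 139.7, 127 and 135 CPM in Control hearts. The TAC hearts lay above the hearts of both other groups, whose values overlapped. Its log2 fold change was 0.71 ± 0.24 (SE) in TAC against Control and -0.63 ± 0.24 in KO-TAC against TAC hearts, with edgeR adjusted p of 0.168 and 0.657. Cdh5, VE-cadherin of the adherens junction, measured 176, 168 and 199 CPM in KO-TAC, 267, 170.0 and 344 CPM in TAC and 196, 191 and 201 CPM in Control hearts. Here TAC replicate 2 lay below every Control heart, so the groups overlapped, and the log2 fold change of TAC against Control hearts was 0.41 ± 0.28.

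Esam, an adhesion molecule of endothelial tight junctions and platelets, averaged 54.2 ± 8.89 CPM in KO-TAC, 113 ± 50.7 in TAC and 49.2 ± 3.95 in Control hearts. It lay apart in TAC hearts from both other groups, with a log2 fold change of 1.20 ± 0.31 against Control hearts and of -1.06 ± 0.31 for KO-TAC against TAC hearts. Robo4, an endothelial receptor that stabilises vessels, averaged 48.7 ± 8.32 CPM in KO-TAC, 92.9 ± 52.8 in TAC and 37.2 ± 3.31 in Control hearts. All KO-TAC and all TAC values of Robo4 lay above those of the Control hearts. Icam2, a constitutive endothelial adhesion molecule, averaged 21.1 ± 8.18, 38.0 ± 21.5 and 15.9 ± 0.545 CPM in KO-TAC, TAC and Control hearts.

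Some of the highest TAC means in this group came from 1 heart. Cldn5, the main claudin of endothelial tight junctions, measured 88.8 CPM in TAC replicate 3, against 26.1 and 9.78 CPM in the other TAC hearts and 13.2 to 14.7 CPM in Control hearts. In KO-TAC hearts it measured 16.9, 7.66 and 25.3 CPM. Without TAC replicate 3 its log2 fold change in TAC against Control hearts was 0.34, against 1.57 with it. Egfl7, a secreted endothelial protein whose gene hosts Mir126a, measured 150.1, 102 and 99.3 CPM in KO-TAC, 161, 86.5 and 425 CPM in TAC and 83.2, 86.4 and 89.8 CPM in Control hearts. Its KO-TAC values lay above all Control values, while TAC replicate 2 fell within the control range. Emcn (endomucin, a surface sialomucin of capillaries and veins) averaged 35.5 ± 2.35 CPM in KO-TAC, 49.6 ± 22.2 in TAC and 26.4 ± 1.39 in Control hearts. Mmrn2, a matrix protein of vessel walls, averaged 53.3 ± 2.37, 68.5 ± 18.3 and 46.6 ± 1.22 CPM in KO-TAC, TAC and Control hearts.

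The 6 receptor genes had a median log2 fold change of 0.66 in TAC against Control, -0.32 in KO-TAC against TAC and 0.22 in KO-TAC against Control hearts. The VEGF receptors in the set gave different patterns, a difference that was not tested itself. Kdr, the main signalling receptor for VEGF, measured 155, 175 and 286 CPM in KO-TAC, 265, 127 and 175 CPM in TAC and 210.0, 216 and 215 CPM in Control hearts. Its Control hearts were nearly equal, the constricted hearts spread to both sides of them, and the log2 fold change was -0.18 ± 0.33 in TAC against Control hearts and 0.12 ± 0.33 in KO-TAC against TAC hearts. Flt1, a VEGF receptor that largely acts as a decoy, measured 143, 185 and 149 CPM in KO-TAC, 228, 189 and 251 CPM in TAC and 137, 134 and 136 CPM in Control hearts. The 3 groups of Flt1 values did not overlap at all, in the order TAC, KO-TAC, Control, with a log2 fold change of 0.71 ± 0.22 in TAC against Control hearts (edgeR adjusted p = 0.149).

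Eng, endoglin, a co-receptor for BMP9 and TGF-beta, measured 163, 147 and 146 CPM in KO-TAC, 229.6, 175 and 352 CPM in TAC and 124, 135 and 141 CPM in Control hearts. Its 3 groups did not overlap either, in the same order as Flt1. The log2 fold change of Eng was 0.92 ± 0.28 in TAC against Control and -0.73 ± 0.28 in KO-TAC against TAC hearts. Tek (TIE2, the angiopoietin receptor) and its partner Tie1 averaged 62.5 ± 2.78 and 117 ± 6.81 CPM in KO-TAC hearts, 74.2 ± 24.4 and 153 ± 46.2 CPM in TAC hearts and 51.8 ± 1.70 and 101 ± 6.12 CPM in Control hearts. For both genes every KO-TAC heart lay above every Control heart, and the TAC range overlapped both groups.

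Ramp2, a partner of the adrenomedullin receptor, measured 81.3, 65.9 and 18.0 CPM in KO-TAC, 77.0, 33.6 and 85.3 CPM in TAC and 23.6, 22.4 and 25.3 CPM in Control hearts. It had the second largest log2 fold change of KO-TAC against Control hearts among the members, 1.21 ± 0.51, with 1 KO-TAC heart below the Control range. In GENCODE's annotation the exons of Ramp2 overlap those of Vps25, an endosomal sorting gene on the same strand, which measured 11.3, 14.2 and 44.5 CPM in KO-TAC, 13.2, 47.8 and 15.2 CPM in TAC and 37.6, 49.2 and 41.7 CPM in Control hearts. The hearts high in 1 of the genes were low in the other. Their sum averaged 78.4 ± 15.1 CPM in KO-TAC, 90.7 ± 9.54 in TAC and 66.6 ± 5.23 in Control hearts, a smaller difference than for Ramp2 alone. How reads shared by both genes were assigned was not tested, so the level of Ramp2 is uncertain. Ackr1 also overlaps a gene on its own strand, Cadm3, which measured 1.52 to 3.96 CPM and exceeded Ackr1 in every heart. Eng, Sox17, Nr2f2, Nos3 and Selp overlap genes on the opposite strand, and Egfl7 overlaps genes on both strands. As the strand setting of the counts is not given, the effect of these overlaps was not tested.

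**Figure D4:**
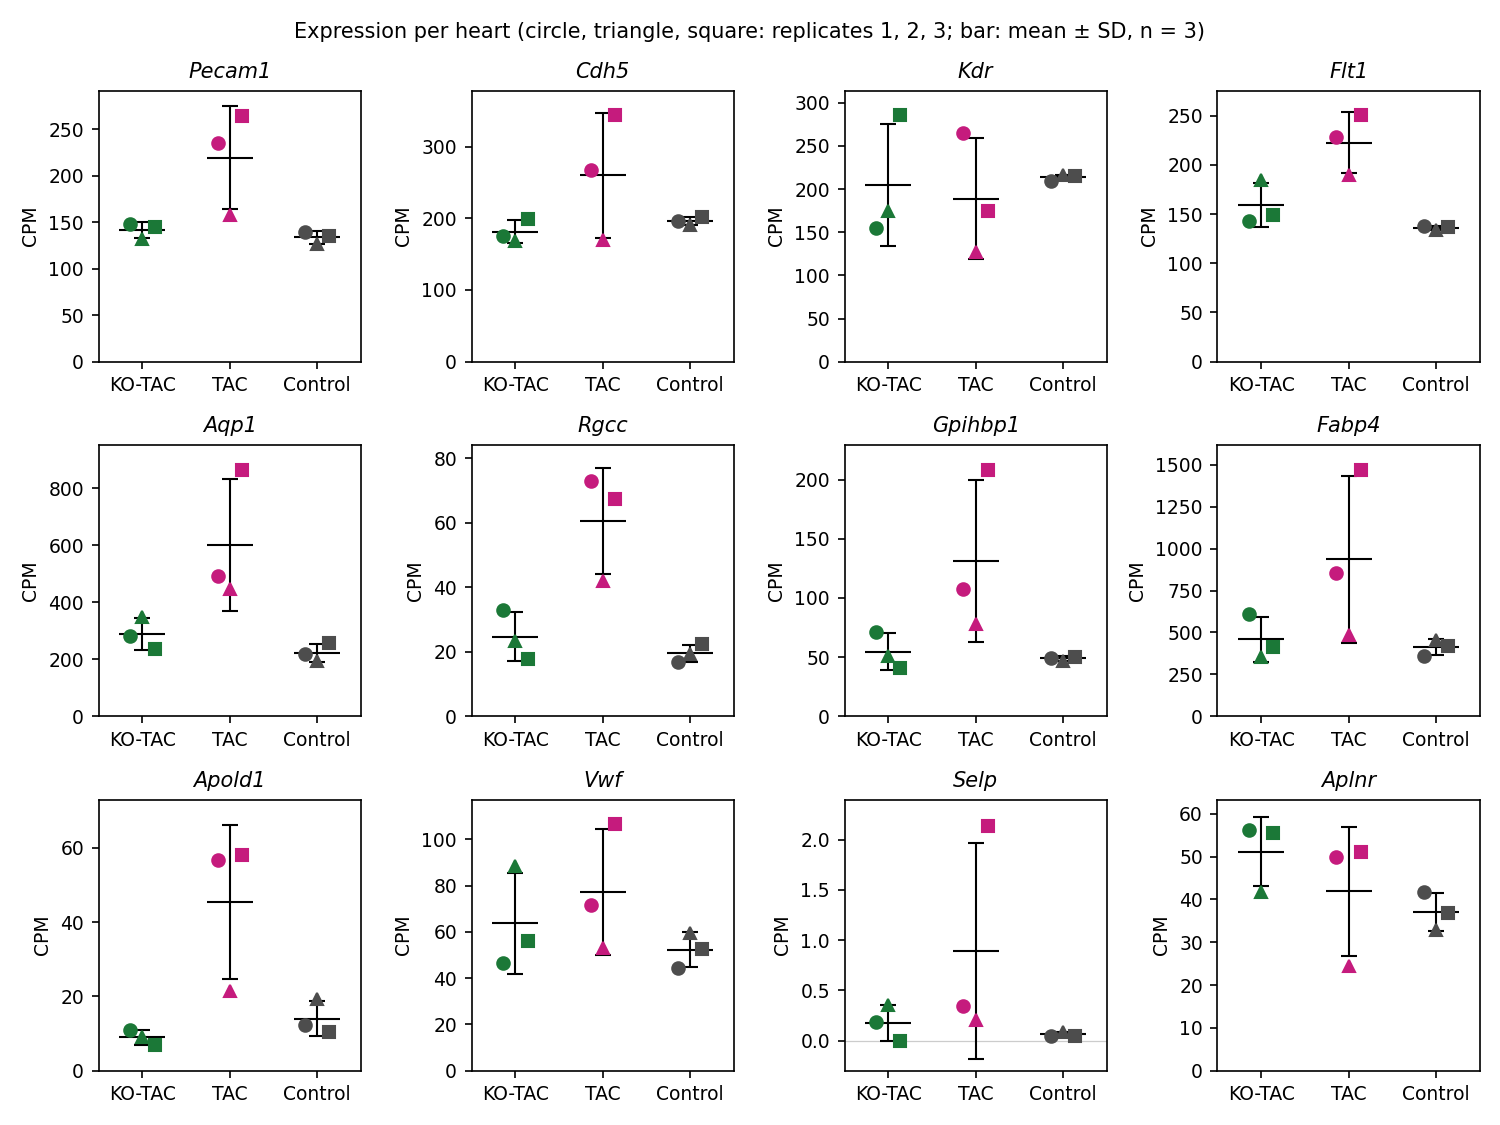
CPM of 12 members (panels) in each heart, by group, with replicate 1 as a circle, 2 as a triangle and 3 as a square, and the mean ± SD (n = 3) as bars. For Flt1 the 3 groups do not overlap, for Kdr the Control hearts lie at 210.0 to 216 CPM inside the ranges of the other groups, and for Apold1 the TAC hearts lie at 21.5 to 58.0 CPM above all others.

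All 4 transcription factors had higher fitted levels in TAC than in Control hearts, and lower ones in KO-TAC than in TAC hearts, with medians of 0.89 and -0.53 on the log2 scale. The median in KO-TAC against Control hearts was 0.45. Sox17, a SOX factor of arterial and developing endothelium, measured 26.7, 19.0 and 10.2 CPM in KO-TAC, 34.4, 21.3 and 49.97 CPM in TAC and 9.60, 13.1 and 11.9 CPM in Control hearts. Every TAC heart was above every Control heart, and the KO-TAC hearts overlapped both groups. The log2 fold change of Sox17 in TAC against Control hearts was 1.61 ± 0.39 (edgeR adjusted p = 0.135). Sox18, its relative in endothelial differentiation, measured 40.4, 34.3 and 42.0 CPM in KO-TAC, 40.6, 39.8 and 84.2 CPM in TAC and 28.0, 28.3 and 28.7 CPM in Control hearts. Both constricted groups lay above the Control hearts, by a log2 fold change of 0.46 ± 0.28 for KO-TAC and of 0.95 ± 0.29 for TAC hearts.

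Erg, the ETS factor that maintains endothelial identity, measured 32.0, 29.7 and 23.1 CPM in KO-TAC, 46.8, 22.1 and 56.2 CPM in TAC and 24.03, 22.9 and 23.4 CPM in Control hearts. TAC replicate 2 was the lowest heart of all for Erg, and the log2 fold change of TAC against Control hearts was 0.83 ± 0.31. Nr2f2 (COUP-TFII), which specifies veins, averaged 12.0 ± 4.79 CPM in KO-TAC, 15.4 ± 4.41 in TAC and 8.80 ± 0.688 in Control hearts, with every TAC heart above every Control heart.

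The 7 capillary genes were apart in TAC and Control hearts without exception, all higher in TAC hearts, where 14.1% of all genes were. Their median log2 fold change was 1.36 in TAC against Control, -1.03 in KO-TAC against TAC and 0.25 in KO-TAC against Control hearts, and for 4 of the 7 (Aqp1, Rgcc, Gpihbp1 and Car4) the KO-TAC hearts all lay below the TAC hearts as well, where 4.8% of all genes did. Rgcc, a cell cycle regulator abundant in capillary endothelium, measured 32.9, 23.4 and 17.8 CPM in KO-TAC, 72.8, 41.8 and 67.2 CPM in TAC and 16.8, 19.3 and 22.3 CPM in Control hearts. All 3 TAC hearts exceeded all 6 others, and the KO-TAC and Control hearts overlapped. Its log2 fold change was 1.64 ± 0.29 in TAC against Control hearts, a fold of 3.11 (edgeR adjusted p = 0.13), and -1.29 ± 0.28 in KO-TAC against TAC hearts, a fold of 2.45 lower (edgeR adjusted p = 0.339). DESeq2 gave adjusted p of 5.85e-05 and 0.00654 for these comparisons of Rgcc.

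Aqp1, the water channel of capillary walls, measured 280.0, 346 and 234 CPM in KO-TAC, 492, 445 and 865 CPM in TAC and 219, 193 and 256 CPM in Control hearts. Again the TAC hearts lay above all others, with a log2 fold change of 1.43 ± 0.33 against Control hearts and of -1.07 ± 0.32 for KO-TAC against TAC hearts (edgeR adjusted p = 0.135 and 0.609). Gpihbp1, which anchors lipoprotein lipase to the capillary wall, measured 71.5, 50.9 and 41.0 CPM in KO-TAC, 107, 78.0 and 208 CPM in TAC and 49.1, 46.9 and 50.4 CPM in Control hearts. Its log2 fold change was 1.43 ± 0.36 in TAC against Control and -1.27 ± 0.36 in KO-TAC against TAC hearts. Fabp4, a fatty acid carrier shared with fat cells and the member with the highest CPM, measured 610.1, 356 and 413 CPM in KO-TAC, 856, 484 and 1472 CPM in TAC and 359, 454 and 418 CPM in Control hearts. TAC replicate 2 exceeded the highest Control heart by little, and KO-TAC replicate 1 exceeded TAC replicate 2. The 6 adipocyte markers summed to at most 2.71 CPM in any heart.

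Car4, a carbonic anhydrase on the luminal face of capillaries, averaged 12.9 ± 2.85 CPM in KO-TAC, 21.3 ± 3.59 in TAC and 13.98 ± 2.66 in Control hearts. It was among the 4 members for which TAC replicate 1, and not TAC replicate 2, was the lowest TAC heart, and its KO-TAC mean was no higher than its Control mean. Cav1, the coat protein of caveolae, averaged 241 ± 42.9 CPM in KO-TAC, 371 ± 132 in TAC and 203 ± 6.35 in Control hearts. Nos3, the endothelial nitric oxide synthase, averaged 45.0 ± 2.38, 88.8 ± 57.9 and 34.6 ± 0.484 CPM in KO-TAC, TAC and Control hearts, with 153 CPM in TAC replicate 3. For Cav1 and Nos3 every KO-TAC heart lay above every Control heart. In counts per kilobase of exon, Aqp1, Fabp4 and Cav1 were the most abundant members, with means of 345, 330 and 224 in KO-TAC, 832, 776 and 388 in TAC and 254, 275 and 176 in Control hearts. These values were scaled to a common total over annotated non-mitochondrial genes in each library, without TMM factors. They are therefore not on the scale of the CPM above.

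The venous and activated genes were the least uniform group, with log2 fold changes of TAC against Control hearts between -0.33 (Sele) and 3.79 (Selp) and a median of 1.13. Their median was -1.09 in KO-TAC against TAC and 0.20 in KO-TAC against Control hearts. No member lay near -1.09, as Apold1, Selp and Ackr1 had -2.34, -2.32 and -1.90 and Vwf, Plvap and Sele had -0.28, -0.28 and -0.10. Without TAC replicate 3 the log2 fold changes of KO-TAC against TAC hearts were -2.12 for Apold1, -0.61 for Selp and -0.23 for Ackr1. Those of Vwf, Plvap and Sele were then 0.04, 0.35 and 0.24. Apold1, a stress-induced gene of endothelial cells, measured 10.96, 8.99 and 6.92 CPM in KO-TAC, 56.8, 21.5 and 58.0 CPM in TAC and 12.3, 19.3 and 10.5 CPM in Control hearts. The TAC hearts lay above all others, and the KO-TAC values lay at and below the bottom of the Control range. Its log2 fold change was -2.34 ± 0.40 in KO-TAC against TAC hearts, a fold of 5.07 lower (edgeR adjusted p = 0.237; DESeq2 adjusted p = 2.03e-05). It was 1.69 ± 0.39 in TAC against Control hearts and -0.65 ± 0.38 in KO-TAC against Control hearts. Without TAC replicate 2 the edgeR adjusted p for KO-TAC against TAC hearts was 0.0393, with a log2 fold change of -2.67, and without TAC replicate 3 it was 0.308, with -2.12.

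Selp and Ackr1 had few counts, and their TAC means rested on TAC replicate 3. Selp, P-selectin, which endothelial cells and platelets store, had 25, 25 and 0 counts in KO-TAC, 26, 13 and 184 in TAC and 4, 6 and 4 in Control hearts. A count of 0 in KO-TAC replicate 3 allows up to 0.0386 CPM (3 counts, counting error only). The log2 fold change of Selp in TAC against Control hearts was 3.79 ± 1.33 (edgeR adjusted p = 0.174), and without TAC replicate 3 it was 2.08. Ackr1, a chemokine receptor of venules, had 21, 12 and 8 counts in KO-TAC, 10, 13 and 109 in TAC and 10, 5 and 11 in Control hearts, and its log2 fold change of 2.23 ± 0.89 became 0.55 without TAC replicate 3. Its exons overlap those of the higher Cadm3 on the same strand, so its level is uncertain as well. Sele, E-selectin of cytokine-activated endothelium, measured 0.972, 1.80 and 0.875 CPM in KO-TAC, 0.917, 1.154 and 1.82 CPM in TAC and 1.91, 1.61 and 1.36 CPM in Control hearts, with overlap between all groups. The 7 platelet and megakaryocyte markers summed to 12.1 to 30.3 CPM in KO-TAC, 18.5 to 31.1 in TAC and 12.8 to 16.3 in Control hearts. Their part in the Selp and Vwf values was not tested.

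Vwf, von Willebrand factor of larger vessels and veins, measured 46.7, 88.3 and 56.0 CPM in KO-TAC, 71.8, 53.1 and 107 CPM in TAC and 44.5, 59.5 and 52.7 CPM in Control hearts. All 3 groups overlapped, with a log2 fold change of 0.56 ± 0.31 in TAC against Control hearts. Plvap, the diaphragm protein of fenestrated and venous endothelium, averaged 7.95 ± 1.43 CPM in KO-TAC, 9.62 ± 5.86 in TAC and 7.35 ± 1.58 in Control hearts, which also overlapped. Apln, the ligand apelin, measured 8.52, 9.62 and 16.6 CPM in KO-TAC, 10.6, 12.5 and 37.4 CPM in TAC and 20.3, 13.8 and 16.1 CPM in Control hearts. Its receptor Aplnr, carried by endothelial cells, measured 56.2, 41.8 and 55.6 CPM in KO-TAC, 50.01, 24.5 and 51.1 CPM in TAC and 41.8, 32.9 and 36.7 CPM in Control hearts. Neither gene separated any pair of groups. Aplnr had the more positive of the 2 log2 fold changes above 0 in KO-TAC against TAC hearts among the members, 0.29 ± 0.28, and Apln the second most negative of KO-TAC against Control hearts, -0.53 ± 0.47.

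Each member was then set against 4 pan-endothelial genes, by the mean log2 level of Pecam1, Cdh5, Tie1 and Erg in the same heart. This scaling was chosen after the data were seen. Kdr, which the marker list for endothelium also held, was left out of this mean. Its log2 fold change in TAC against Control hearts was -0.18, against 0.41 to 0.83 for the 4 genes used. How the ratios would change with Kdr in the mean was not tested. Relative to the control mean the level of the 4 genes was 0.18, 0.06 and 0.07 in KO-TAC hearts and 0.74, -0.01 and 0.99 in TAC hearts, on the log2 scale. On this ratio 12 members lay higher in all TAC than in all Control hearts (3.28% of all genes did) and 4 lay lower (27.5%). The 12 were Esam, Icam2, Robo4, Ramp2, Sox17, Aqp1, Rgcc, Fabp4, Gpihbp1, Cav1, Nos3 and Apold1, and the 4 were Cdh5, Kdr, Sele and Aplnr. Pecam1, Cdh5, Tie1 and Erg make up the denominator, so their own ratios, here and below, are not independent of it. That denominator was itself higher in TAC replicates 1 and 3, so a gene of unchanged CPM lies lower there. The shares of all genes on this ratio, here and below, partly reflect this scaling.

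Between the constricted groups, Esam, Rgcc, Gpihbp1 and Apold1 lay lower on this ratio in all KO-TAC than in all TAC hearts, where 0.625% of all genes did, and Tek, Tie1 and Aplnr lay higher (14.3% of all genes). Relative to the mean ratio of the Control hearts, the log2 ratio of Apold1 was -0.48, -0.63 and -0.999 in KO-TAC and 1.28, 0.65 and 1.07 in TAC hearts. The ratio of Rgcc was 0.57, 0.20 and -0.19 in KO-TAC and 1.14, 1.102 and 0.78 in TAC hearts, so TAC replicate 2, low in CPM for most members, was not low in this ratio. That of Kdr was -0.65, -0.35 and 0.34 in KO-TAC and -0.44, -0.74 and -1.27 in TAC hearts. In KO-TAC against Control hearts 7 members lay higher (7.36% of all genes) and Cdh5 and Apold1 lower (20.8%). With all libraries scaled to these 4 genes, edgeR called 0 genes in each comparison, and the members' median log2 fold change was 0.27 in TAC against Control, where that of all genes was -0.49, and -0.17 in KO-TAC against TAC, where that of all genes was 0.42.

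**Figure D5:**
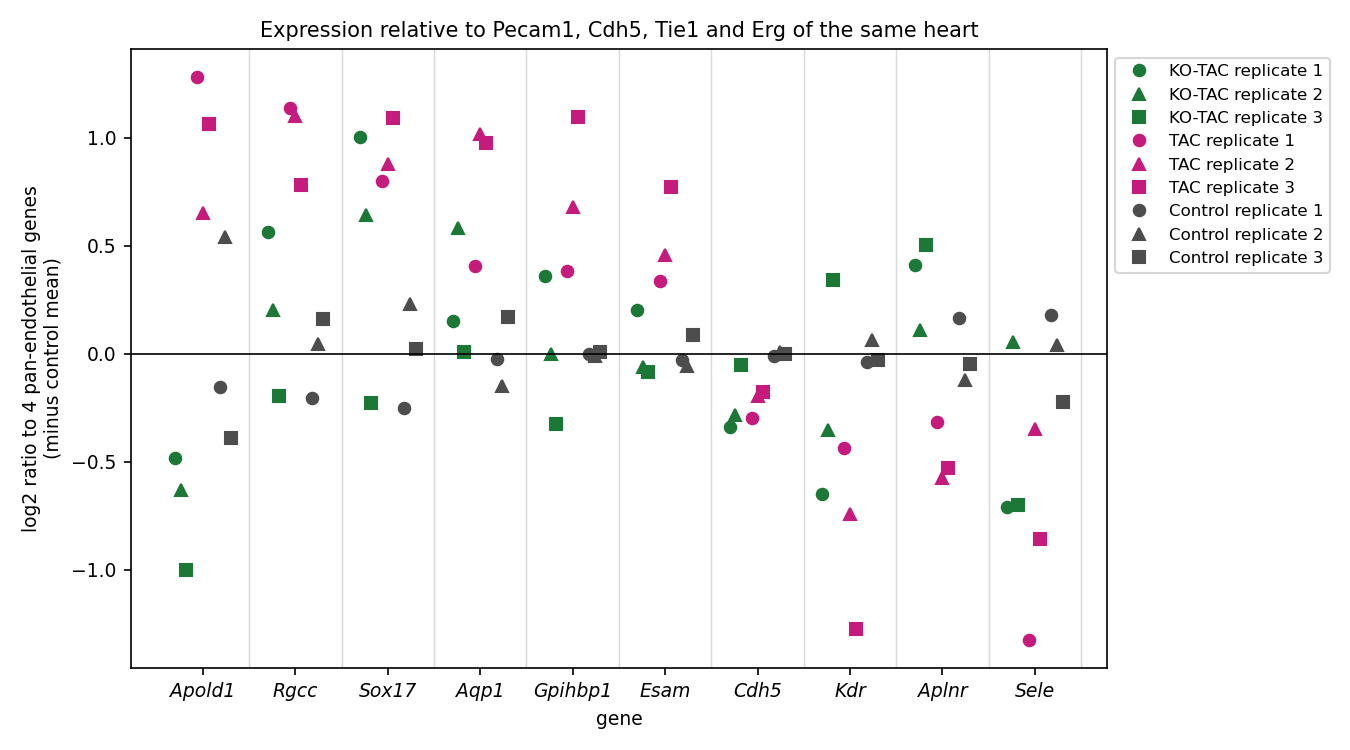
Log2 ratio of 10 members to the mean of Pecam1, Cdh5, Tie1 and Erg in the same heart, minus the control mean (y axis), with 1 point per heart. For Apold1 the 3 TAC hearts lie at 0.65 to 1.28 and the 3 KO-TAC hearts at -0.999 to -0.48.

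Other endothelial genes, listed by vessel type, had medians of the same sign and passed in no comparison in edgeR. Of 34 further pan-endothelial genes, 29 had a higher fitted level in TAC than in Control hearts (median log2 fold change 0.67) and 32 a lower one in KO-TAC than in TAC hearts (median -0.38). Adgrf5, an adhesion receptor of capillaries, averaged 237 ± 21.4 CPM in KO-TAC, 337 ± 75.6 in TAC and 233 ± 7.13 in Control hearts. Podxl, a sialomucin of the lumen, averaged 238 ± 43.8, 272 ± 70.1 and 158 ± 14.5 CPM in KO-TAC, TAC and Control hearts, with both constricted groups above the Control hearts. Of 14 arterial and Notch genes, 13 were higher in TAC than in Control hearts (median 0.47). Notch4, a Notch receptor of endothelium, averaged 47.9 ± 8.91 CPM in KO-TAC, 96.0 ± 58.6 in TAC and 36.8 ± 1.39 in Control hearts, while Notch1 averaged 55.4 ± 0.777, 73.5 ± 22.7 and 55.1 ± 3.22 CPM.

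Of 8 capillary lipid genes, 6 were higher in TAC than in Control hearts (median 0.67). The exceptions included Cd36, a fatty acid receptor that heart muscle also carries, which averaged 998 ± 400 CPM in KO-TAC, 825 ± 443 in TAC and 1493 ± 59.5 in Control hearts. Cd300lg, a capillary surface glycoprotein, averaged 86.5 ± 9.15, 107 ± 43.5 and 98.2 ± 6.72 CPM in KO-TAC, TAC and Control hearts. All 8 venous and inflammatory genes (median 0.51) and all 8 tip cell genes (median 0.81) had higher fitted levels in TAC than in Control hearts. Among them Ephb4, a receptor of venous endothelium, averaged 57.0 ± 3.91 CPM in KO-TAC, 74.8 ± 11.5 in TAC and 53.8 ± 1.499 in Control hearts, with the TAC hearts apart from both other groups. Nrp2 and Lama4 overlapped between TAC hearts and both other groups, as did Mcam, which averaged 47.3 ± 3.44, 82.5 ± 49.2 and 46.3 ± 3.10 CPM in KO-TAC, TAC and Control hearts.

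Of 7 lymphatic genes, 6 were higher in TAC than in Control hearts (median 0.88). Flt4, the VEGF-C receptor, averaged 24.8 ± 2.87 CPM in KO-TAC, 35.3 ± 8.67 in TAC and 19.2 ± 1.93 in Control hearts, whereas Prox1, a transcription factor of lymphatic endothelium that heart muscle also expresses, averaged 42.0 ± 23.1, 17.8 ± 10.4 and 73.3 ± 5.53 CPM. The KO-TAC and TAC values of Prox1 all lay below the Control values. Of 4 endocardial genes, 3 were higher in TAC than in Control hearts (median 0.38). Nfatc1, a transcription factor of endocardial cushions, averaged 16.1 ± 1.52 CPM in KO-TAC, 23.4 ± 5.00 in TAC and 17.6 ± 0.211 in Control hearts, and the TAC hearts lay above all others. Npr3, a natriuretic peptide receptor of the endocardium, averaged 19.1 ± 6.03, 12.5 ± 3.82 and 15.4 ± 1.37 CPM in KO-TAC, TAC and Control hearts, with overlap between the groups.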

How the data were processed

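Per the labels' protocols, total RNA was extracted with Trizol and made into strand-keeping libraries with a NEBNext Ultra II Directional kit. The authors deposited whole-number counts, 1 row per gene symbol, with no sign of normalization. The submitters' processing notes name DESeq2 1.42.0, HISAT2 2.2.1, StringTie 2.2.1, Trim Galore 0.6.10 and SAMtools 1.15, and the builds mm10 and GRCm38. The sources used here do not give the counter, the annotation or the strand setting.

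The members, lists and named-gene rule were chosen with earlier results of these data known. Values of every heart are given for 17 members by that rule (the 2 with the highest mean CPM in each role and the 3 most positive and 3 most negative log2 fold changes per comparison), and for Rgcc, Gpihbp1, Flt1, Cldn5 and Egfl7, added after their values were seen. Where a symbol repeated (110 rows), the row with the largest total was used. The test was edgeR 4.0.16 (R 4.3.3; glmQLFit and glmQLFTest, two-sided) with TMM factors, a filterByExpr minimum count of 10, all 9 libraries in 1 fit with group as the only term, and Benjamini-Hochberg adjusted p under 0.05 over 19051 genes. The biological coefficient of variation was 42.12% with 3.53 prior degrees of freedom. Alternatives included DESeq2 1.42.0 and limma 3.58.1 with voom quality weights. Libraries of the same group differed by more than sampling noise in every pair (the lowest chi-square over its degrees of freedom was 23.42). Positions and exon lengths come from GENCODE M21 for GRCm38, which lists 18641 (97.8%) of the symbols tested. The edgeR procedure was tested on simulated data with less spread between libraries than these. That test therefore does not show how many changes the procedure can find here.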

Additional observations from a re-analysis of the deposited data

How the results depend on the processing

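RLE factors, library size alone, both other filters, 2-group fits, leaving out mitochondrial genes and the replicate block kept 0 members past the threshold in every comparison. Only the edgeR counts of all genes in KO-TAC against Control hearts moved, to 2 without a filter and 30 in the 2-group fit. DESeq2 called 1626 genes and 16 members in TAC against Control, 195 and 2 in KO-TAC against TAC, and 89 and 0 in KO-TAC against Control hearts. Limma-voom with quality weights called 7230 and 24, 996 and 11, and 991 and 0, with TAC replicate 1 weighted far above the other TAC hearts. Leaving out 1 library gave 0 to 5477 genes, 0 to 25 members and medians of 0.55 to 1.13 in TAC against Control, 0 to 13 genes, 0 to 1 members and medians of -0.85 to -0.27 in KO-TAC against TAC, and 0 to 4 genes, 0 members and medians of 0.18 to 0.33 in KO-TAC against Control hearts. Scaling to 4 pan-endothelial genes gave medians of 0.27, -0.17 and 0.15. Library size alone gave 0.50 in KO-TAC against Control hearts, where the median of all genes moved as well, from 0.04 to 0.28. It gave 1.28 in TAC against Control hearts, where the median of all genes moved from 0.03 to 0.29, and -0.75 in KO-TAC against TAC hearts. The causes were not tested, beyond the smaller number of samples when a library is left out.

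Single genes changed sign as follows, as log2 fold changes. In TAC against Control hearts, library size alone gave Kdr 0.089 and Sele 0.035, voom gave Kdr 0.20 and Apln -0.51, and the 4-gene scaling gave Cdh5 -0.23, Mmrn2 -0.057, Tek -0.11, Tie1 -0.026, Vwf -0.069, Plvap -0.30, Apln -0.41 and Aplnr -0.48. In KO-TAC against TAC hearts, voom gave Kdr -0.34, Vwf 0.050, Plvap 0.20, Sele 0.49 and Aplnr -0.042, and the 4-gene scaling gave Cdh5 0.0055, Emcn 0.095, Mmrn2 0.14, Tek 0.27, Tie1 0.13, Ramp2 0.31, Erg 0.0015, Sox18 0.023, Nr2f2 0.14, Vwf 0.26, Plvap 0.31 and Sele 0.38. In KO-TAC against Control hearts, library size alone gave Cdh5 0.12, Kdr 0.14 and Car4 0.13, voom gave Cldn5 -0.31 and Fabp4 -0.077, and the 4-gene scaling gave Pecam1 -0.023.

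Leaving out 1 library changed the sign of Kdr (-0.51 to 0.037), Plvap (-0.24 to 0.65), Apln (-0.55 to 0.57) and Aplnr (-0.0091 to 0.44) in TAC against Control hearts. It did so for Sele (-0.50 to 0.24), Kdr (-0.19 to 0.45), Ramp2 (-0.64 to 0.18), Vwf (-0.59 to 0.038), Plvap (-0.54 to 0.35) and Apln (-1.15 to 0.011) in KO-TAC against TAC hearts. In KO-TAC against Control hearts it did so for Esam (-0.0044 to 0.21), Kdr (-0.37 to 0.11), Fabp4 (-0.094 to 0.31), Gpihbp1 (-0.086 to 0.33), Car4 (-0.26 to 0.049), Vwf (-0.031 to 0.47), Cldn5 (-0.19 to 0.58) and Plvap (-0.031 to 0.28).

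Replicate numbers in the titles gave no clear sign of pairing, although so few hearts per group cannot exclude it. The TAC columns of the deposited counts carry other numbers than the titles, and pairing by those was not checked. Deviations from the group means correlated by 0.123, 0.205 and -0.418 between same-numbered KO-TAC and TAC hearts, and 4 of 18 best matches carried the same number. A replicate block changed no call, left 0 genes past the threshold and turned Cldn5 to -0.043 in KO-TAC against Control hearts.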
